A study of Homo sapiens with 6 samples.

Results

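The genes described here are 9 regulators of the primitive streak and of the axial progenitors that extend the embryo's tail end: TBXT, CDX1, CDX2, CDX4, SOX2, NKX1-2, MIXL1, EOMES and GSC. They were found in the raw count table by Ensembl ID, 9 rows of 60107. No measured value enters that rule, but the genes were chosen with earlier results of these data known. RNA came from H9, an established human embryonic stem cell line, collected at the end of day 9 of differentiation toward nephron progenitors, the cells that build the kidney's filtering units. In the first group the medium was complete, with glutamine throughout (3 libraries), and in the second glutamine was left out from day 0 on (3 libraries). Every library came from the same cell line, and the labels do not say whether the libraries of a group came from separate cultures, so p-values measure the spread between these libraries, which may be technical. Below, replicates are numbered as in the sample titles. The headings of the count table name days 0 and 9 in place of the glutamine groups, and each column was given its group through the heading quoted in the sample's description, on which every direction below rests.

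During gastrulation, cells enter the primitive streak and leave it as mesoderm or endoderm, and TBXT, MIXL1, EOMES and GSC are transcription factors switched on there. Toward the embryo's tail end, neuromesodermal progenitors keep TBXT, a mesodermal factor, and SOX2, a neural and pluripotency factor, in the same cells. From them trunk spinal cord and paraxial mesoderm are made. The CDX homeodomain factors act in the same posterior tissue, downstream of WNT and FGF signals, and open the posterior HOX genes, while intermediate mesoderm, the source of the kidney, leaves the streak beside them.

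The libraries held 78220507 to 84746566 counts. Replicate 1 with glutamine stood apart from its group: across 22613 genes, which are not independent replicates, Pearson's r of its log2 CPM was 0.976 with replicate 2 and with replicate 3 of the same group, against 0.991 to 0.993 with those grown without glutamine. The counts for the 9 genes and for each list below are therefore given with and without it, as are printed fold changes that it moved by over 1.5 times. Genes of the labelled cell type were present, the 13 nephron progenitor and intermediate mesoderm genes summing to 1049 to 1700 CPM with glutamine and 1590 to 2123 CPM without. WT1 and PAX8, made by early kidney cells, were among them in every library. Others of the 13 had a lower mean without glutamine.

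With all 6 libraries, none of the 9 genes passed the threshold for a difference between the groups, and only 6 of them were tested. None of the 9 had groups that did not overlap, where 17.3% of all genes tested were higher and 16.9% lower without overlap. The highest values of TBXT, CDX1, CDX2, CDX4, SOX2, MIXL1 and EOMES were in replicates 2 and 3 with glutamine, while replicate 1 with glutamine lay with the libraries without glutamine or under them. CDX1 differed most, with a mean 4.19 times as high with glutamine as without. NKX1-2 had no count in any library, and GSC had 3 counts in all 6. The test was edgeR's quasi-likelihood test with Benjamini-Hochberg adjustment over 22613 genes, at a threshold of 0.05, which called 0.00442% of all genes tested, 1 gene, and none of the 9. At an unadjusted p under 0.05 there were 2 of the 9, CDX1 and MIXL1, both lower without glutamine, where 15% of all genes were lower at that level. DESeq2 called 1 of the 9, MIXL1, and 7.07% of all 43005 genes that it gave a p, and limma-voom called 0 of the 9. Some of those 43005, EOMES and GSC among them, had no adjusted p from DESeq2 and could not be called. The 7.07% is thus below the share among genes that could be called.

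**Figure D1:**
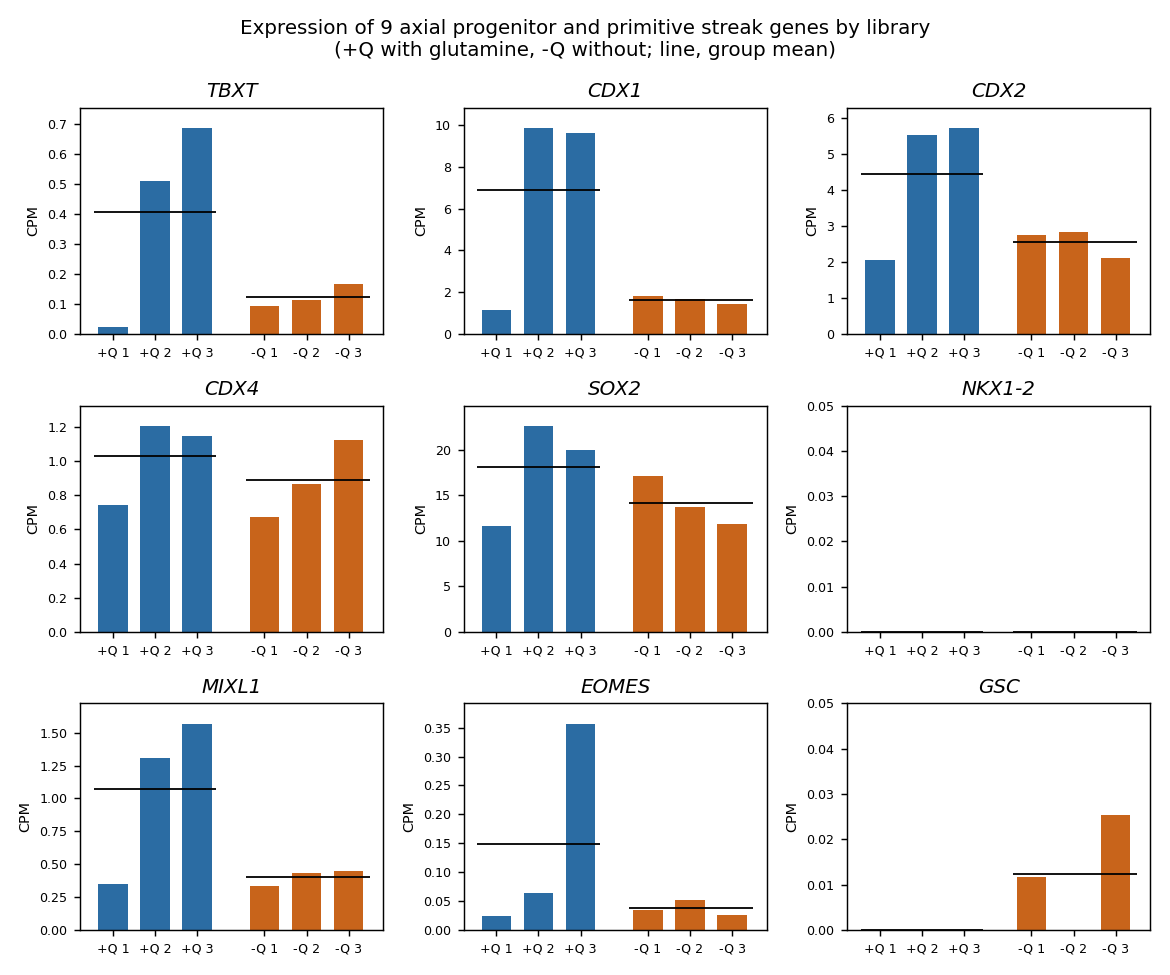
Expression of each of the 9 genes in each library, as CPM (y axis, linear from 0, 1 scale per gene); blue bars are the libraries with glutamine (+Q), orange bars those without (-Q), and the line is the group mean. Replicates 2 and 3 with glutamine hold the highest bars for 7 genes, replicate 1 with glutamine is at or under the level without glutamine for most of them, and NKX1-2 is at 0 throughout.

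TBXT (ENSG00000164458), also called Brachyury, is the T-box factor that defines the streak and the mesodermal side of neuromesodermal progenitors. Its position is chromosome 6, 166157656 to 166168700, minus strand (GENCODE 29, GRCh38). It had 2, 40 and 54 counts in replicates 1, 2 and 3 with glutamine and 8, 9 and 13 without. As CPM, the counts-per-million of the library after TMM scaling, these are 0.0246, 0.512 and 0.687 with glutamine and 0.0930, 0.115 and 0.166 CPM without. Replicate 1 with glutamine was the lowest of the 6 libraries and the other libraries of its group the highest, so the groups overlapped. Group means were 0.408 ± 0.343 and 0.124 ± 0.0372 CPM (SD, n = 3), and the log2 fold change of the group without glutamine against the other was -1.70 (SE 0.87; adjusted p from edgeR 0.229). The value depended on the tool, at -0.80 with limma-voom. At such counts the precision is low: the exact 95% Poisson interval, which covers counting error only, ran from 0.00299 to 0.0890 CPM in replicate 1 with glutamine and from 0.0402 to 0.183 CPM in replicate 1 without, and these intervals overlap.

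The 3 CDX paralogs are caudal-type homeodomain factors. CDX1 (ENSG00000113722, chromosome 5, 150166795 to 150184558, plus strand), a target of WNT and retinoic acid signals, was at 1.16, 9.85 and 9.62 CPM with glutamine and at 1.84, 1.66 and 1.43 CPM without. Replicates 2 and 3 with glutamine stood far above the other 4 libraries, and replicate 1 was the lowest of all. Its Poisson interval, 0.936 to 1.42 CPM, overlapped that of replicate 3 without glutamine, 1.17 to 1.72 CPM. Without against with glutamine, its log2 difference was -2.06 (SE 0.69; adjusted p from edgeR 0.114).

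CDX2 (ENSG00000165556, chromosome 13, 27962137 to 27971139, minus strand), which also specifies trophectoderm and intestine, was at 2.06, 5.52 and 5.71 CPM with glutamine and at 2.76, 2.82 and 2.11 CPM without. The same libraries were high and low as for CDX1, at a smaller size, with replicate 1 with glutamine again the lowest. Without against with glutamine, its log2 difference was -0.79 (SE 0.37; edgeR adjusted p = 0.203). CDX4 (ENSG00000131264, chromosome X, 73447254 to 73455245, plus strand), the paralog confined most tightly to the tail end of the embryo, was at 0.739, 1.20 and 1.15 CPM with glutamine and at 0.674, 0.868 and 1.12 CPM without. Replicate 3 without glutamine reached the level of replicate 3 with it, and the groups overlapped. For CDX4 the log2 difference was -0.22 (SE 0.28; edgeR adjusted p = 0.617).

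On a scale per length, CDX1 was the most abundant CDX gene in all 6 libraries, and its margin over CDX2 was not the same in all of them. TPM, a transcripts-per-million value computed from the counts and GENCODE 29 exon lengths, gave a CDX1 to CDX2 ratio of 1.32, 4.18 and 3.95 with glutamine and of 1.56, 1.38 and 1.58 without. The summed TPM of the 3 CDX genes was 7.52, 34.3 and 32.4 with glutamine and 9.67, 9.56 and 8.87 without. CDX1 made up 40.0%, 72.4% and 71.9% of that sum with glutamine and 48.4%, 42.9% and 39.3% without. In replicates 2 and 3 with glutamine the CDX output was thus both larger and more weighted to CDX1 than in the other 4 libraries, and the groups overlapped through replicate 1. The lengths take in every annotated exon, so a ratio between genes would shift with the isoforms in use, while a change of 1 ratio between libraries would not shift with the length.

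**Figure D2:**
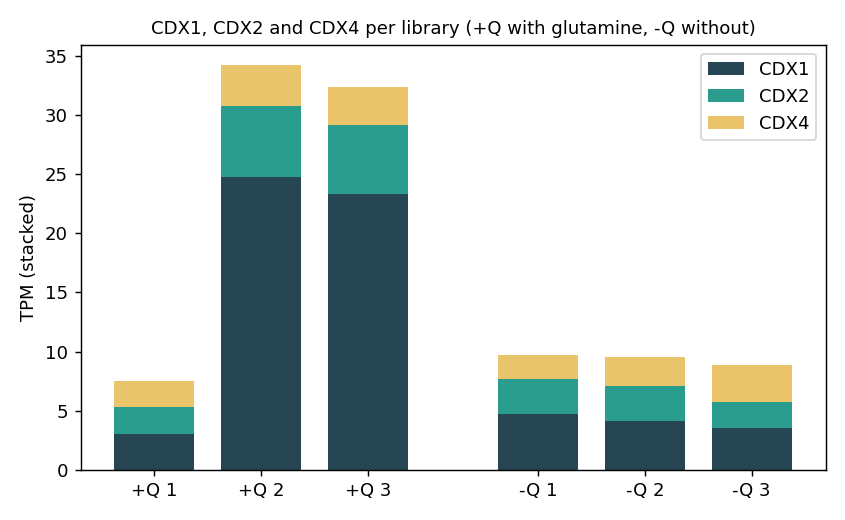
Stacked TPM (y axis, from 0) of CDX1, CDX2 and CDX4 in each library, with glutamine (+Q) and without (-Q). The stacks of replicates 2 and 3 with glutamine reach 34.3 and 32.4 TPM and the other 4 lie between 7.52 and 9.67 TPM; CDX1 makes most of the excess.

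SOX2 (ENSG00000181449, chromosome 3, 181711924 to 181714436, plus strand), the SOXB1 factor shared by pluripotent, neural and neuromesodermal cells, was the most abundant of the 9 per length. It was at 11.6, 22.6 and 20.0 CPM with glutamine and at 17.1, 13.7 and 11.9 CPM without. Replicates 2 and 3 with glutamine were highest, replicate 1 without glutamine came next, and replicate 1 with glutamine was lowest. Without against with glutamine, its log2 difference was -0.35 (SE 0.25; edgeR adjusted p = 0.381). SOX2 sits inside the noncoding gene SOX2-OT on the same strand. The 2 share no exonic base in GENCODE 29, and SOX2-OT had 83 to 133 counts per library, against 931 to 1767 for SOX2. NKX1-2 (ENSG00000229544, chromosome 10, 124445239 to 124450184, minus strand), a homeodomain factor of the caudal epiblast that marks neuromesodermal progenitors in the mouse, had 0 counts in all 6 libraries. A count of 0 allows up to 3 counts as a 1-sided 95% bound, or 0.0349 to 0.0384 CPM per library. The exact 95% Poisson interval used for TBXT reached 0.0429 to 0.0472 CPM here. An antisense gene covers 1225 of its 3364 exonic bases and also had 0 counts.

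Per molecule of TBXT there was far more SOX2: the ratio of their TPM was 494, 46.2 and 30.5 with glutamine and 193, 125 and 74.9 without. The pair that defines neuromesodermal progenitors was least unequal in replicates 2 and 3 with glutamine, where TBXT was highest, and most unequal in replicate 1, where TBXT rested on 2 counts. In bulk RNA a change in the number of cells of a type and a change in RNA per cell cannot be told apart, nor can it be seen whether SOX2 and TBXT were in the same cells.

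Among the genes of the streak itself, MIXL1 (ENSG00000185155, chromosome 1, 226223618 to 226227054, plus strand), a homeodomain factor of nascent mesoderm and endoderm, was the most abundant per length. It had 28, 102 and 123 counts with glutamine and 29, 34 and 35 without, which are 0.345, 1.31 and 1.57 CPM and 0.337, 0.434 and 0.446 CPM. Here replicate 1 with glutamine lay within the range without glutamine and not under it. Without against with glutamine, its log2 difference was -1.40 (SE 0.53; edgeR adjusted p = 0.141). DESeq2, which called 7.07% of all genes that it gave a p, called it at -1.40 (SE 0.50, DESeq2 adjusted p 0.0398).

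EOMES (ENSG00000163508, chromosome 3, 27715949 to 27722711, minus strand), a T-box factor needed for definitive endoderm and early mesoderm, had 2, 5 and 28 counts with glutamine and 3, 4 and 2 without. Its level with glutamine rested on replicate 3 alone, at 0.356 CPM against 0.0246 and 0.0640 CPM in replicates 1 and 2. GSC (ENSG00000133937, chromosome 14, 94768216 to 94770230, minus strand), a homeodomain factor of the organizer and anterior streak, had no count with glutamine and 1, 0 and 2 without, all within the 3 counts that a count of 0 allows. EOMES, GSC and NKX1-2 did not pass the filter on low counts and were not tested. Of the 6 that passed, TBXT did so through replicates 2 and 3 with glutamine, where it was high, and replicate 3 without.

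Ordered by mean TPM, the genes ran the same way in both groups. With glutamine the levels were 31.7 ± 9.57 for SOX2, 17.0 ± 12.2 for CDX1, 4.71 ± 2.10 for CDX2, 2.99 ± 0.675 for CDX4, 2.30 ± 1.34 for MIXL1, 0.673 ± 0.560 for TBXT and 0.174 ± 0.210 for EOMES (SD, n = 3). Without glutamine they were 24.8 ± 5.25, 4.09 ± 0.598, 2.72 ± 0.450, 2.55 ± 0.595, 0.873 ± 0.111, 0.206 ± 0.0578 and 0.0445 ± 0.0154 TPM in that order (SD, n = 3). With glutamine, the range over libraries of each of these 7 genes overlapped that of its neighbour in the order, so the order is not firm there. Without glutamine the ranges of CDX2 and CDX4 overlapped, and those of the other neighbours did not. SOX2 was above CDX1 in every library.

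Leaving out replicate 1 with glutamine changed the outcome of the test. In that fit, over 23164 genes, 5 of the 9 genes were lower without glutamine at an edgeR adjusted p under 0.05, where 19% of all genes tested were called lower and 22.3% higher. The log2 fold changes were -2.56 for CDX1 (SE 0.13; edgeR adjusted p = 5.55e-07), -2.26 for TBXT (SE 0.32, 0.000456), -1.82 for MIXL1 (SE 0.22, 0.000156), -1.13 for CDX2 (SE 0.14, 0.000203) and -0.58 for SOX2 (SE 0.14, 0.00829). CDX4 was not called, at -0.41 (SE 0.23, edgeR adjusted p = 0.186). Replicate 1 was singled out after its values were seen, so the adjusted p-values of this fit are a description and not a test. TBXT had 40 and 54 counts in the libraries left with glutamine and 8, 9 and 13 without. It thus passed the filter on low counts mainly through the group where it was high, and its call is not independent of that filter. For 7 of the 9 all libraries without glutamine then lay below both that were left with it, against 31.3% of all genes tested. EOMES, among the 7, was not itself tested, and in it this rested on 5 counts against at most 4. Leaving out any other library called none of the 9. The difference therefore rests on which library is kept, and no library was left out of the main test.

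**Figure D3:**
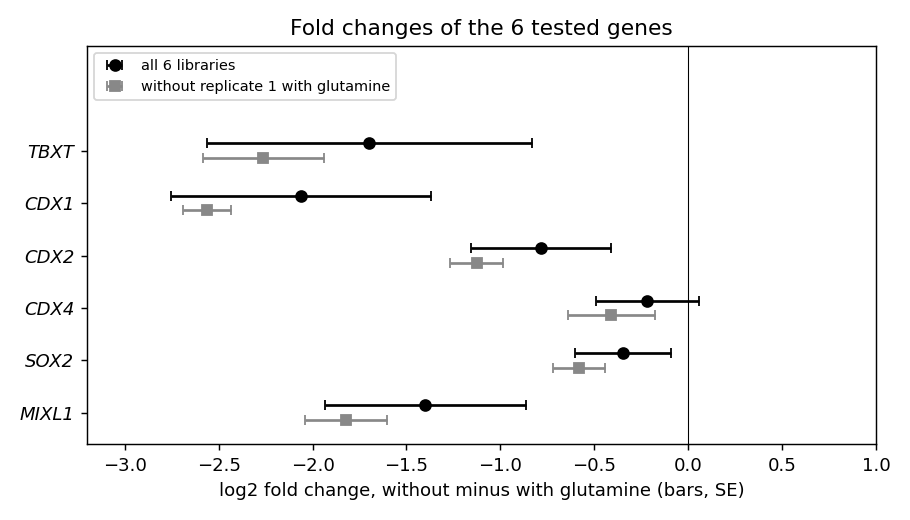
Log2 fold change without minus with glutamine (x axis) of the 6 genes that passed the filter, from edgeR with all 6 libraries (circles) and without replicate 1 with glutamine (squares); bars are SE. Every point lies below 0, and leaving out the library moves CDX1 from -2.06 to -2.56 with a narrower bar.

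Replicate 1 with glutamine did not lie midway between its group and the other for these genes. It was the lowest of the 6 libraries for 5 of the 9, namely TBXT, CDX1, CDX2, SOX2 and EOMES, against 14.5% of all genes tested. EOMES was not itself among the genes tested. The next library was at 2.11 against its 2.06 CPM for CDX2, at 11.9 against 11.6 CPM for SOX2, at 1.43 against 1.16 CPM for CDX1 and at 0.0930 against 0.0246 CPM for TBXT, while for EOMES it held 2 counts as well. Some posterior HOX genes placed the same library differently. HOXC11, expressed in the lumbosacral region of the embryo, was at 0.246, 0 and 0 CPM with glutamine and at 1.79, 3.55 and 2.56 CPM without. HOXD10 was at 6.32, 0.487 and 0.649 CPM with glutamine and at 16.9, 27.7 and 32.7 CPM without. For these genes replicate 1 lay above the rest of its group and below the group without glutamine, whereas for TBXT and CDX1 it lay past that group. For TBXT and CDX1 its Poisson interval overlapped intervals of libraries without glutamine, so that place is not beyond counting error.

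The start regions of these genes are shown because CDX genes and TBXT are textbook WNT targets and several of them were high in the same libraries. RefSeq promoter windows on GRCh38.p14, from 250 bases before to 50 after the transcription start, were given for 8 of the 9 genes, with 2 windows for TBXT; CDX1 had none. The stretches printed stop where GENCODE 29 places an exon and run 5′ to 3′ on the gene's strand. Capitals mark each match to CTTTGA, the core letters bound by TCF and LEF factors, or to its reverse complement TCAAAG. For TBXT only the window that held a match is printed, and it lies inside the gene's GENCODE 29 span. Its other window, across the upstream end of that span, held no match.
TBXT, chr6:166167878-166168101, minus strand: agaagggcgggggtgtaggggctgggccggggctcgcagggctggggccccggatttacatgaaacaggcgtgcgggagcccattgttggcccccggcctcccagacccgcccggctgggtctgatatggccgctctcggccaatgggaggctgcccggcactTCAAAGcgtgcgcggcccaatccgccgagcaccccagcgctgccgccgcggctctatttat
MIXL1, chr1:226223414-226223617, plus strand: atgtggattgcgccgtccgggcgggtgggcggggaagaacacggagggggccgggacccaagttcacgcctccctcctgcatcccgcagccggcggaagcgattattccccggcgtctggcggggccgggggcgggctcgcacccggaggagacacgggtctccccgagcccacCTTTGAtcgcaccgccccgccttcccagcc
CDX4, chrX:73446803-73447052, plus strand: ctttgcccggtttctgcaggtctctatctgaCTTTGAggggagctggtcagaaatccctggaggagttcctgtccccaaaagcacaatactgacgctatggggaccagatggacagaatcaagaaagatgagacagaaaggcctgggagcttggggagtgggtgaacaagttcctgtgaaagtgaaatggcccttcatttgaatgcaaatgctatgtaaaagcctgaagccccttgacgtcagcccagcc
SOX2, chr3:181711675-181711923, plus strand: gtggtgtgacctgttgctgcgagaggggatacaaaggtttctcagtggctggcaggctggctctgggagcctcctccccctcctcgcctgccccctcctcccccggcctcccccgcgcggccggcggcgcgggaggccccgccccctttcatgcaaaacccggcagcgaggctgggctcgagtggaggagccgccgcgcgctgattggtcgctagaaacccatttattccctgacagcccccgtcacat

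CTTTGA, searched on both strands, was present in the windows of TBXT (1 of its 2), CDX2, CDX4 and MIXL1, and not in those of SOX2, EOMES, GSC and NKX1-2. Of all 35116 RefSeq windows of 300 bases, 12.9% held it. The matches began 87 bases before the start in TBXT, 76 in MIXL1, 219 in CDX4 and 238 in CDX2, whose window lies inside a GENCODE exon and is not printed. TTTAT, the core that CDX factors bind and that also occurs in TATA boxes, was in the windows of TBXT, CDX2, SOX2, EOMES and GSC, and in 34.9% of all windows. AGGTGT, a T-box core, was in none of the windows, against 11.4% of all, and ATTGTT, a SOX core, was in those of TBXT and CDX2, against 10.1% of all. A match is a run of letters and not a bound site.

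Genes known to work beside these 9 lay on both sides of 0. Of 14 caudal epiblast and neuromesodermal partner genes, 12 passed the filter, none was called with all libraries, and the median log2 fold change was 0.15. Groups did not overlap for 3 genes on the higher side without glutamine and for 3 on the lower side. Over all genes tested the median was 0.00, with 17.3% higher and 16.9% lower without overlap. Without replicate 1 with glutamine, 22.3% of all genes tested were called higher and 19% lower. These shares are the background for the counts of this list and of each list below, and counts near them are not results about a list. SP8, a zinc finger factor of the tail bud, was at 1.36, 6.03 and 6.06 CPM with and 0.849, 0.970 and 0.624 CPM without, at -2.45 (SE 0.58; edgeR adjusted p = 0.0722). Its relative SP5, a direct WNT target, was at 0.702, 3.27 and 3.46 CPM with and 1.62, 1.35 and 0.968 CPM without, and replicate 1 was the lowest library, as for CDX1. WNT5B, a ligand of the caudal mesoderm, went the other way, at 21.2, 10.1 and 9.72 CPM with and 29.3, 26.7 and 24.0 CPM without. FGF4, a ligand of the streak, was at 1.59, 0.256 and 0.165 CPM with and 1.34, 1.35 and 0.993 CPM without. Without replicate 1 with glutamine, 3 of the 13 then tested were called higher and 5 lower, and the log2 difference of FGF4 went from 0.86 to 2.54.

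Nascent and presomitic mesoderm, the tissue that TBXT-positive progenitors feed, was split as well. Of 11 genes 10 passed the filter and none was called. Without overlap 2 were higher and 4 lower, 3 of the lower ones tested, and the median log2 fold change was -0.50. RSPO3, a WNT potentiator, was at 26.9, 59.0 and 62.6 CPM with and 16.2, 15.4 and 17.5 CPM without, at -1.60 (SE 0.30; edgeR adjusted p = 0.068). HES7, the segmentation clock oscillator, was at 0.641, 5.19 and 4.47 CPM with and 1.33, 1.02 and 0.853 CPM without, again with replicate 1 lowest. DLL1, a Notch ligand, was at 54.7, 22.5 and 21.1 CPM with and 78.1, 74.6 and 55.2 CPM without, and RIPPLY1, which ends segmentation signals at the somite border, at 1.34, 0.602 and 0.802 CPM with and 2.58, 2.96 and 3.39 CPM without. Without replicate 1 with glutamine, 3 were called higher and 5 lower of 10, and DLL1 went from 1.08 to 1.67 on the log2 scale.

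Anterior streak, node and endoderm genes are the setting of EOMES and GSC. Of 13 genes 8 passed the filter and none was called. Without overlap 4 were higher, 2 of them tested, and 2 were lower, and the median was -0.19. FOXA2 had no count with glutamine and 3 to 4 counts without. GATA6 differed by 1.82 on the log2 scale (SE 0.52; edgeR adjusted p = 0.0879), NODAL -0.48 (SE 0.24, 0.227), CHRD -0.14 (SE 0.21, 0.671) and LEFTY2 0.01 (SE 0.34, 0.987), and the sign of LEFTY2 changed under upper quartile scaling. Without replicate 1 with glutamine, 3 were called higher and 3 lower of 10. GATA6 was then at 2.86, CHRD at 0.11 and LEFTY2 at -0.23.

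Feedback and target genes of WNT, the signal that switches on TBXT and CDX genes, lay on both sides of 0. SP5, the direct WNT target given above, is not in this list. Of 9 genes 8 passed the filter and none was called, 2 were higher and 0 lower without overlap, and the median was 0.10. NKD1, a WNT inhibitor induced by WNT, was at 38.9, 97.8 and 103 CPM with and 39.3, 26.1 and 29.4 CPM without, and LEF1, the nuclear WNT effector, at 75.5, 122 and 119 CPM with and 81.6, 77.7 and 67.3 CPM without. LGR5, the R-spondin receptor, was at 19.5, 2.71 and 2.74 CPM with and 22.3, 32.3 and 30.2 CPM without, and the secreted inhibitor DKK1 at 35.1, 8.10 and 10.5 CPM with and 26.3, 43.1 and 37.7 CPM without. In all 4, replicate 1 with glutamine lay with or next to the group without glutamine. Without that library, 4 were called higher and 3 lower of 9, with LGR5 going from 1.76 to 3.38 and DKK1 from 0.99 to 1.94 on the log2 scale.

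SOX2 and CDX2 also mark other cells, whose defining genes were measured beside them. In the pluripotency list NANOG had at most 1 count and PRDM14 at most 2 in a library, 3 of 9 genes were higher and 1 lower without overlap, and the summed level was 358 to 445 CPM with glutamine and 351 to 423 CPM without. DPPA4 and LIN28A made most of it, differing by log2 values of 0.80 (SE 0.19; edgeR adjusted p = 0.0724) and -0.95 (SE 0.26, 0.0829). UTF1 was at 2.29 (SE 0.63; edgeR adjusted p = 0.0839) and ZFP42 at 0.38 (SE 0.16, 0.168). LIN28A, at 156, 310 and 322 CPM with and 152, 132 and 125 CPM without, was thus high in the same libraries as SOX2. In the fit without replicate 1 with glutamine, 3 pluripotency genes were called higher and 1 lower of 5, DPPA4, LIN28A and UTF1 among them, and the median went from 0.38 to 1.04. In the neural list 4 of 15 genes were higher and 2 lower without overlap, the summed level was 531 to 651 CPM with and 542 to 651 CPM without, and most of it was NES, an intermediate filament gene not limited to neural cells. PAX3, a dorsal neural tube and somite factor, was at 20.8, 115 and 118 CPM with and 22.4, 12.4 and 13.4 CPM without, high in the same libraries as CDX1. PAX6 (-0.35, SE 0.15, edgeR adjusted p 0.162), POU3F2 (0.28, SE 0.11, 0.152) and ZIC1 (0.24, SE 0.31, 0.623) differed by less, and the sign of ZIC1 rested on replicate 1 without glutamine, at -0.23 when it was left out. With replicate 1 with glutamine left out, 4 neural genes were called higher and 3 lower of 15, where 22.3% and 19% of all genes tested were.

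The trophectoderm and amnion list summed to 8.84 to 19.2 CPM with glutamine and 18.1 to 22.4 CPM without, with 2 of 11 genes higher, 0 lower without overlap, and GABRP, ELF5 and HAND1 at 0 to 3 counts. GATA3 (1.02, SE 0.30, edgeR adjusted p 0.0911), GATA2 (1.21, SE 0.44, 0.126), TFAP2A (0.92, SE 0.76, 0.439) and TFAP2C (-1.31, SE 0.41, 0.101) were not called with all libraries, and kidney and neural lineages also express several of them. When replicate 1 with glutamine was left out all 4 were called, at 1.49, 2.01, 2.74 and -1.54 in that order, and the list had 4 called higher and 1 lower of 7. The hindgut and intestine list summed to 5.07 to 10.1 CPM with and 7.48 to 7.83 CPM without, with 1 of 10 genes higher and 0 lower. KRT20 and FABP1 had at most 7 counts in any library, APOA1 was at 0.45 (SE 0.46; edgeR adjusted p = 0.529) and GPA33 at -0.22 (SE 0.20, 0.465). Leaving out the same library, 4 of 8 were called higher and 0 lower, with APOA1 at 1.29 (SE 0.19; edgeR adjusted p = 0.000536) and GPA33 at -0.03. CDX2 was highest in replicates 2 and 3 with glutamine, where the summed level of either list was lowest. The part of such cells in the CDX2 level was not tested.

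CDX factors are known to act on posterior HOX genes, and of 21 genes of paralog groups 7 to 13 the test kept 16 and called none. Without overlap 11 were higher without glutamine, 9 of them tested, and 2 were lower, where 17.3% and 16.9% of all genes tested were. The median log2 fold change of those tested was 0.60. HOXC13 and HOXD13, at 0 to 8 counts, were among the 11 but not tested. Many of the higher ones were of groups 10 and 11, as HOXA11 at 1.21, 0.0384 and 0.0764 CPM with and 3.45, 5.26 and 3.64 CPM without, and HOXD11 at 0.542, 0 and 0.0127 CPM with and 3.22, 5.33 and 6.05 CPM without. HOXB7, HOXD8 and HOXD9 were higher as well. The 2 lower ones were HOXC8 and HOXB9, named after their values were seen. HOXB9 was at 328, 527 and 545 CPM with glutamine and 319, 283 and 282 CPM without, so that CDX1 and CDX2 were high in libraries with more HOXB9 and less HOXD11. Without replicate 1 with glutamine, 10 were called higher and 5 lower of 16, where 22.3% and 19% of all genes tested were. HOXA11 then went from 3.20 to 6.12 and HOXD10 from 3.36 to 5.50 on the log2 scale.

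In the nephron progenitor and intermediate mesoderm list, 3 of 13 genes were higher and 2 lower without overlap, the median was 0.30 and none was called. PAX2 and LHX1, which specify intermediate mesoderm, differed by log2 values of 1.71 (SE 0.89; edgeR adjusted p = 0.234) and 2.07 (SE 1.02, 0.217), higher without glutamine but not called. Others of the list were lower without glutamine and not called, among them OSR1 (-0.87, SE 0.30, edgeR adjusted p 0.117), EYA1 (-0.48, SE 0.13, 0.0796) and CITED1 (-0.35, SE 0.11, 0.107). Those named are not the largest falls of the list. Without replicate 1 with glutamine 7 were called higher and 6 lower, out of 13, with PAX2 at 3.72 and LHX1 at 4.63.

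**Figure D4:**
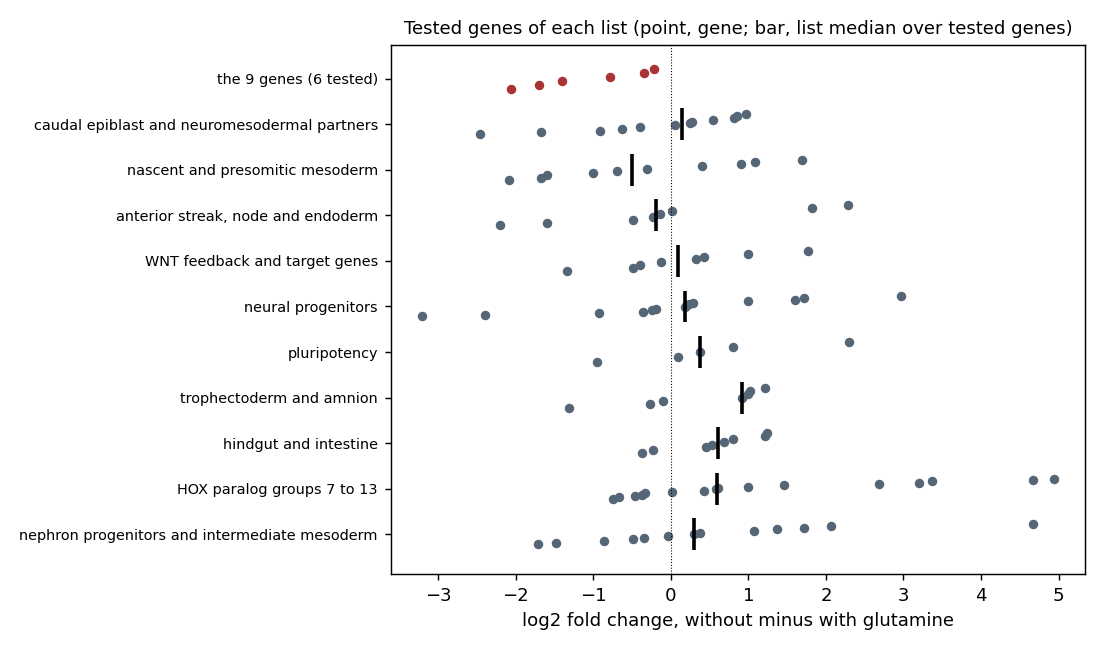
Log2 fold change without minus with glutamine (x axis, edgeR, all 6 libraries) of every tested gene of the 9 (red) and of each list (grey); the black bar is the list median and the dotted line the median of all genes tested. The 6 tested genes lie between -2.06 and -0.22, while each list holds genes on both sides of 0.

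The genes most like each of these in their pattern over the 6 libraries were found among 11921 genes with a mean of at least 5 CPM, by Pearson's r of log2 CPM. The points share their libraries and fall mainly into high and low values, so r is near 1 for many genes and is given as a description. For TBXT they were LEPROTL1 (r 0.999), NUP160 (0.998) and PPP4R2 (0.995), and for CDX1 they were TMEM68 (0.998), PLOD1 (0.997) and RHOBTB3 (0.997). For CDX2 they were SCARB2 (0.999), FZD6 (0.998) and CARNMT1 (0.998), and for MIXL1 TMEM254 (0.999), BTG1 (0.998) and GPBP1 (0.998). CDX4 was most like GHR (0.994), RBM39 (0.991) and CRIPT (0.990), and SOX2 most like CHST12 (0.996), KLF15 (0.994) and PRRX2 (0.993). PLOD1, for example, was at 112, 205 and 210 CPM with glutamine and at 131, 130 and 120 CPM without, with the same high and low libraries as CDX1. No gene was shared between these sets.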

How the data were processed

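RNA from 6 libraries, 3 per group, was measured by stranded mRNA sequencing as single 50-nt reads, per the labels. The authors deposited raw counts for 60107 Ensembl IDs, and those counts were used. The submitters' processing notes name Trim Galore, cutadapt, FastQC, STAR 2.5.2b, DESeq2 and the build GRCh38. The counting program, strand setting and annotation release are not given in the sources used here, so overlapping and antisense genes are uncertain. The column headings name days 0 and 9 although, per the labels, every sample is from day 9. The heading quoted in a sample's description set its column, and every direction rests on that.

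Symbols, positions and exon lengths came from GENCODE 29, which held 56531 of the IDs. The test was edgeR's quasi-likelihood F test (version 4.0.16, R 4.3.3; filterByExpr, TMM, glmQLFit with legacy = FALSE), checked on simulated data. An SE is the absolute log2 fold change divided by the square root of F. Alternatives used limma 3.58.1 and DESeq2 1.42.0. The members, the lists and the tests were chosen with earlier results of these data known. Named were all members, up to 4 genes per list with the largest absolute log2 fold change at 1 CPM or more in the higher group, and the 3 genes most like each tested member. Other genes named were picked after their values were seen. A gene that the rule picked is not reported here. Reads carry no molecular identifiers, so intervals cover counting error only.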

Additional observations from a re-analysis of the deposited data

How the results depend on the processing

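No paired analysis was supported by the data: same-numbered libraries deviated from their group means with correlations of -0.02, 0.00 and 0.03, and with the replicate block 0 of the 9 genes and 0 of all genes were called.

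Of all genes, 1 was called with all libraries. The count was 0 under upper quartile scaling, library size only, limma-voom and edgeR's legacy setting, 2 with no filter and 3041 with DESeq2, which called 1 of the 9 genes, MIXL1. The cause was not tested. Leaving out 1 library gave 0 to 9573 called genes and 0 to 5 of the 9, the highest without replicate 1 with glutamine. The number of the 9 lower without overlap ran from 0 to 7, highest without the same library, and the number higher from 0 to 1, the 1 being GSC, at 1 and 2 counts, without replicate 2 of the group without glutamine.

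Over 16 alternatives, 43 named genes gave 688 values: 7 reversed, 53 passed the threshold that they had missed, and 628 did neither. LEFTY2 was at -0.032 under upper quartile scaling and from -0.231 to 0.308 when 1 library was left out; in such fits CHRD ran from -0.319 to 0.111 and ZIC1 from -0.233 to 0.426. Over those fits TBXT ran from -2.26 (without replicate 1 with glutamine) to -1.09 (without replicate 3 with glutamine), CDX1 from -2.56 to -1.72, CDX2 from -1.13 to -0.56 and MIXL1 from -1.82 to -1.02. SOX2 ran from -0.58 (without replicate 1 with glutamine) to -0.16 (without replicate 2 with glutamine), and CDX4 from -0.42 to -0.04 (without replicates 3 and 1 of the group without glutamine). TBXT, EOMES and GSC are limited by depth, with at most 54, 28 and 2 counts in a library.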
